A study of Mus musculus with 20 samples.

Results

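Liver takes amino groups off amino acids and passes them, largely through glutamate, to the urea cycle, while the carbon skeletons enter the citric acid cycle or glucose synthesis. Transaminases move the amino group between an amino acid and a keto acid, glutamate dehydrogenase releases it as ammonia, glutaminase frees ammonia from glutamine, and serine dehydratase turns serine directly into pyruvate and ammonia. Glutamine breakdown is a periportal activity of hepatocytes and glutamine synthesis a pericentral one. The 9 genes described here are Got1 and Got2 (cytosolic and mitochondrial aspartate aminotransferase), Gpt and Gpt2 (alanine aminotransferases of the cytosol and the mitochondrion), Agxt (alanine-glyoxylate aminotransferase), Sds and Sdsl (serine dehydratase and its relative), Glud1 (glutamate dehydrogenase) and Gls2 (the glutaminase of adult liver). They were selected by gene symbol from 38924 genes, and all 9 were present and passed the filter on low values.

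RNA was measured in livers of 20 male mice, 5 per group. WT mice (C57BL/6J) and TSP-1 null mice were bought at 5 weeks of age and acclimated for 1 week. They were then fed for 12 weeks either control chow or CDAHFD, which is used as a model of non-alcoholic steatohepatitis (NASH). CDAHFD is a high-fat diet that lacks choline and is limited in methionine, with protein replaced by amino acids. Mice on control diet are called NDWT (WT) and NDKO (TSP-1 null), and those on CDAHFD are HFWT (WT) and HFKO (TSP-1 null). TSP-1 is thrombospondin 1, encoded by Thbs1 and inactivated in the whole animal, and the null mice were bought as a separate line and not described as littermates of the WT mice, so genotype and line of origin cannot be told apart. Values are FPKM, fragments per kb of gene scaled to the fragments each library had assigned to genes, and n = 5 mice per group throughout. The replicates are mice, and the mice carry replicate numbers that do not pair them across groups.

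Fragments assigned to genes ran from 15641545 to 23276322 per library (median 18950482.5), and every member had at least 172 fragments in every library, the fewest being those of Sdsl. Thbs1 went against the labels on control diet: it lay at 0.058 to 0.326 FPKM in NDWT and 0.986 to 1.90 FPKM in NDKO, and in CDAHFD livers at 3.46 to 6.10 FPKM in HFWT and 3.05 to 4.40 FPKM in HFKO. The mitochondrial transfer RNA genes mt-Tg and mt-Tr were at 0 in all 10 libraries labelled TSP-1 null. They were above 0 in all 10 labelled WT, at 3 to 22 fragments for mt-Tg and 1 to 14 for mt-Tr. These low counts divide the libraries as labelled, while Thbs1 itself does not show the deletion. "TSP-1 null" below therefore means the libraries labelled so. Markers of the tissue were those of liver: 11 hepatocyte genes summed to 41894 to 67021 FPKM, whereas the pancreatic genes Amy2a5 and Cela3b were at 0 in every library and the adipose and muscle genes Adipoq and Ckm were near 0.

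On control diet, 6 of the 9 genes were higher in TSP-1 null than in WT livers, and none was lower. Got1 was 4.01-fold higher, Sds 3.21-fold, Agxt 2.35-fold, Sdsl 1.86-fold, Gls2 1.65-fold and Gpt2 1.63-fold. Of all 14524 genes tested, 1.74% were called higher and 3.03% lower in that comparison. A gene was called (a differentially expressed gene, DEG) at an FDR under 0.05 in limma and an absolute log2 fold change (log2FC) above 0.58. In 7 of the 9 genes every null mouse lay above every WT mouse, a separation found in that direction in 2.33% of all genes tested and in the other direction in 6.69%.

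On CDAHFD the genotype difference was called in 1 of the 9, Gls2, with 0.165% of all genes called higher and 0.33% lower. CDAHFD itself lowered 2 of the 9 in WT livers (Gls2 and Agxt, against 4.62% of all genes called lower) and 5 of the 9 in TSP-1 null livers (Got1, Sds, Sdsl, Gls2 and Agxt, against 4%). With diet, WT mice separated without overlap downward in 2 of the 9 (Got2 and Agxt) and upward in 1 (Gpt2), against 5.7% and 50.5% of all genes. Null mice separated downward in 6 of the 9 and upward in none, against 5.03% and 52.7%. On CDAHFD the genotypes separated in 1 of the 9, Sdsl, higher in HFKO, against 0.847% of all genes higher and 4.13% lower. None of the 9 was called higher on CDAHFD in either genotype, although 44.1% of all genes in WT and 41.9% in TSP-1 null livers were. The comparisons share groups: NDKO enters both the diet effect in null mice and the genotype effect on control diet.

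FPKM are shares of a library, and on CDAHFD the median of all genes tested moved by 0.53 in WT and 0.50 in TSP-1 null livers (log2). Relative to that shift, the median log2FC of the 9 genes was further down than its plain value of -0.45 in WT and -0.71 in null livers: each of the 9 lay below the median of all genes in both diet comparisons. On control diet the genotype difference carried no such shift, the median of all genes being -0.07 and that of the 9 genes 0.72. Under scaling by the median of ratios to a reference library, 6 of the 9 were called lower in WT and 7 in null livers on CDAHFD. Calls over all genes rose too: of 14524 genes tested, 2242 were then called lower in WT and 1980 in null livers, against 671 and 581 without that scaling. The genotype calls on control diet numbered 6 as before, all higher, with 348 of all genes called higher and 329 lower.

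**Figure D1:**
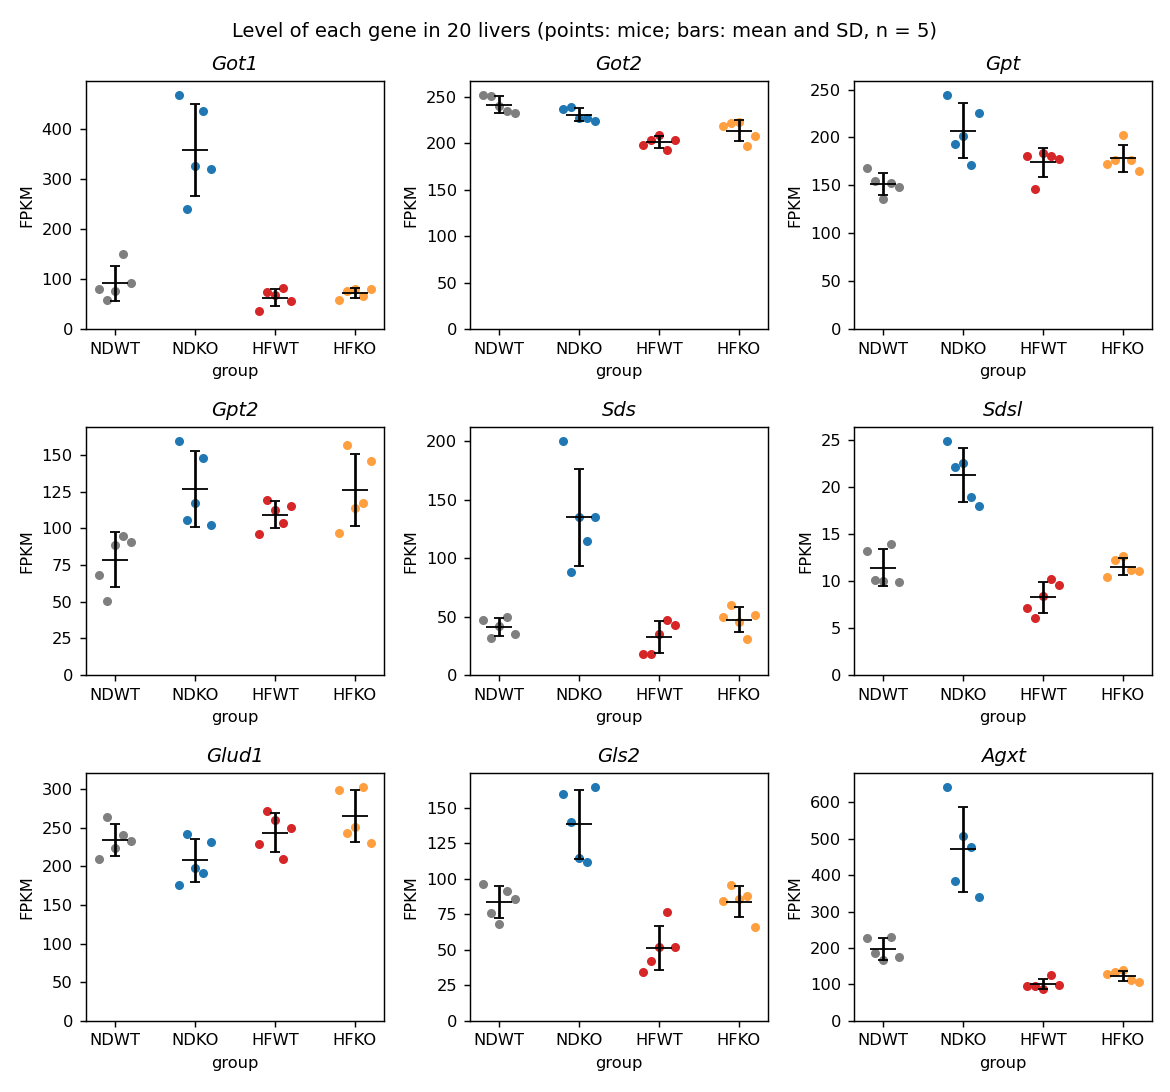
FPKM of each gene (y axis, from 0) in the 4 groups (x axis); points are mice in order of replicate number, and bars give the mean and SD of 5 mice. For Got1, Sds, Sdsl, Gls2, Agxt, Gpt and Gpt2 the 5 NDKO mice lay above the 5 NDWT mice; Got2 stayed between 192.6 and 252.1 FPKM in all 20 livers.

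Got1 (ENSMUSG00000025190.7; GRCm38 chromosome 19, 43499752 to 43524605, minus strand) makes the cytosolic aspartate aminotransferase, an arm of the malate-aspartate shuttle and the AST of clinical chemistry together with the product of Got2. It read 81.2, 57.6, 75.9, 152 and 91.8 FPKM in NDWT and 469, 241, 327, 436 and 320 FPKM in NDKO. In CDAHFD livers it read 36.8, 74.5, 67.7, 81.9 and 56.3 FPKM in HFWT and 59.3, 75.9, 80.2, 66.5 and 80.5 FPKM in HFKO. The NDKO mice stood apart from all 15 others, whereas NDWT, HFWT and HFKO overlapped. Means were 91.6 ± 35.7 (SD) in NDWT and 359 ± 92.7 in NDKO, a log2FC of 2.01 (SE 0.24, FDR 3.9e-05).

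On CDAHFD the genotype difference in Got1 was 0.24 (95% interval -0.26 to 0.73, FDR 0.631), from 63.4 ± 17.6 in HFWT to 72.5 ± 9.28 FPKM in HFKO. The diet lowered Got1 in TSP-1 null livers, with a log2FC of -2.27 (SE 0.24, FDR 6.6e-08), 4.84-fold. In WT livers the diet difference was -0.51 (SE 0.24, FDR 0.0608) and was not called; it passed without NDWT mouse 2 (-0.65, FDR 0.0183), without HFWT mouse 4 (-0.61, FDR 0.0333) and under median of ratios scaling (-1.07, FDR 0.000979). The diet effect differed between genotypes by -1.77 (SE 0.33, interaction FDR 0.0183), and 0.31% of all genes had an interaction called in that direction and 0.337% in the other. Got1 and Agxt were the only members of the 9 with a called interaction.

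Got2 (ENSMUSG00000031672.7; chromosome 8, 95864134 to 95888547, minus strand), the mitochondrial partner of Got1, was the steadiest of the 9. It read 252.1, 251, 240.0, 234 and 232 FPKM in NDWT and 238, 239.8, 227, 227 and 224 FPKM in NDKO. It read 199, 204, 209, 193 and 204 FPKM in HFWT and 219, 222, 223, 197 and 208 FPKM in HFKO. The coefficient of variation between mice was 3.02% to 5.28% within groups, against 12.8% to 39.0% for Got1. Groups on control diet lay above groups on CDAHFD within each genotype without overlap, by -0.26 in WT (SE 0.05, FDR 7.6e-05) and -0.11 in TSP-1 null livers (SE 0.05, FDR 0.0443), both under the fold threshold. Under median of ratios scaling both were called, at -0.82 and -0.65 (FDR 4.3e-10 and 1.3e-08), and under hepatocyte marker scaling they were -0.01 and 0.08. The genotype difference on control diet was -0.07 (95% interval -0.17 to 0.04), which leaves out a change of the size seen in Got1. Got2 shares runs of 31 bases with the pseudogenes Gm10874 and Got2-ps1, which were at most 0.167 and 1.20 FPKM, so few fragments could have been assigned to them.

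The 250 bases before the start of 3 members are shown to set the pair of aspartate aminotransferases, which separated, beside Agxt, the other member whose diet effect differed between genotypes. They come from RefSeq (GRCm38.p6) and are written 5′ to 3′ on the strand of the gene, ending at the base before the RefSeq start. That start is the one in the table for Got1 and lies 5 bases upstream of it for Agxt, but for Got2 it lies 146 bases downstream, so the last 146 bases of the Got2 window are inside the gene as the table has it. The regions are chr19:43524606-43524855 for Got1 and chr8:95888402-95888651 for Got2 (both minus strand) and chr1:93134990-93135239 for Agxt (plus strand). Capitals mark matches, on either strand, to the TATA motif TATAAA, the CCAAT motif CCAAT, the cAMP response core TGACG, the nuclear receptor motif AGGTCA, the glucocorticoid receptor motif TGTTCT or the E-box CACGTG.
Got1: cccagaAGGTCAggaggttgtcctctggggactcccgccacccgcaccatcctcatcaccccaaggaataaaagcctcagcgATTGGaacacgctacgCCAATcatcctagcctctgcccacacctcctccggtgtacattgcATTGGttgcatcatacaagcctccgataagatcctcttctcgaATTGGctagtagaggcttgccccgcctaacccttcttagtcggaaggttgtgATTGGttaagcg
Got2: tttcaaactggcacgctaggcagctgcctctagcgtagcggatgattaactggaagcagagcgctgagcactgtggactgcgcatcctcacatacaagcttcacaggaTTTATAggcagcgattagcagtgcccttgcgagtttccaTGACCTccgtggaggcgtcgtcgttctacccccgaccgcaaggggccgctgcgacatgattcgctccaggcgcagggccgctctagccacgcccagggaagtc
Agxt: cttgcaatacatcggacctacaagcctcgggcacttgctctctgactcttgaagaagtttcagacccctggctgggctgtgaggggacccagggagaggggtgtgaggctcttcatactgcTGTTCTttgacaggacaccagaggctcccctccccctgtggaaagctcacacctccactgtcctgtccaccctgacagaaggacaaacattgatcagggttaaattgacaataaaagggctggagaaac
Got1 held 5 CCAAT matches (on the plus strand at -152 and on the minus strand at -168, -107, -64 and -12, counted to the RefSeq start) and a match to AGGTCA at -244. Got2 held TATAAA at -142 and AGGTCA at -103, both on the minus strand and both within those 146 bases, and Agxt held TGTTCT at -129. No pair of motifs searched overlapped in these windows. Of 32851 promoter windows of mouse genes, 33.8% held CCAAT, 14% AGGTCA, 12.4% TATAAA, 16.1% TGTTCT, 17.8% TGACG and 6.02% CACGTG. A match is a description of the letters, and the RNA data do not show what binds there. Windows were given for 5 of the 9 genes, also for Gpt2 and Glud1, and those of Gpt, Sds, Sdsl and Gls2 are not shown.

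**Figure D2:**
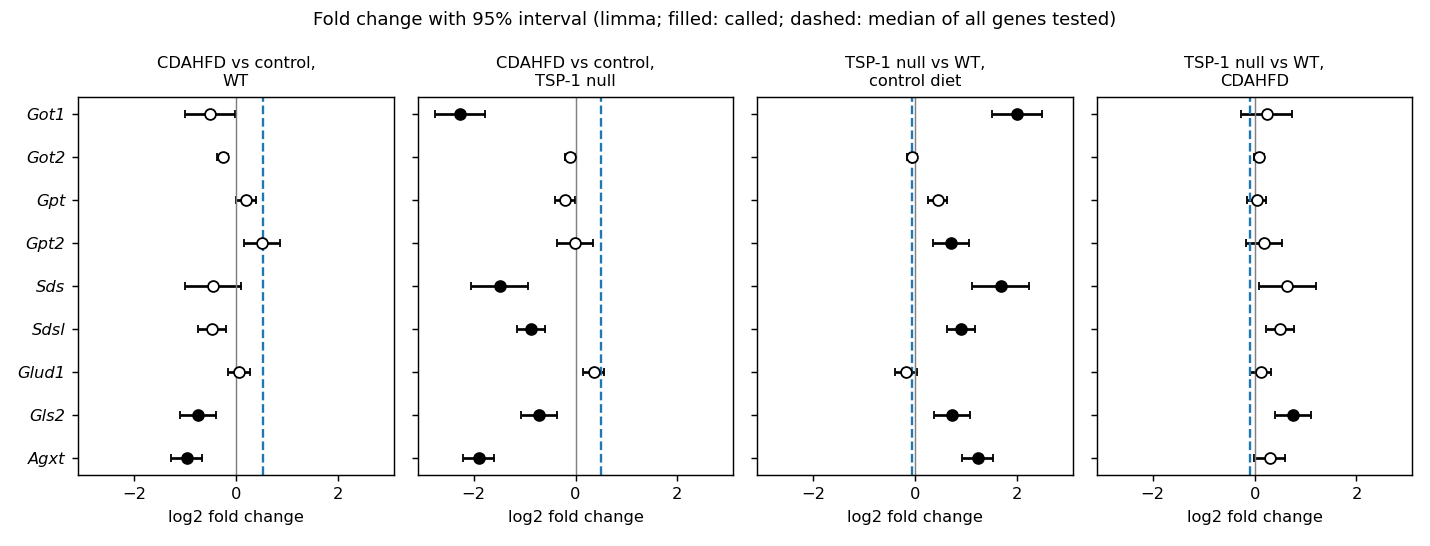
log2FC (x axis) of the 9 genes (y axis) in the 4 comparisons with 95% intervals from limma; filled points are called, and the dashed line is the median of all 14524 genes tested. The called points lie above 0 in both genotype panels and below 0 in both diet panels.

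The aspartate aminotransferases changed their proportion as well as their level. Got1 made up 24.4% of the summed FPKM of Got1 and Got2 in the median NDWT liver (18.7% to 39.3%) and 59.0% in the median NDKO liver (50.2% to 66.4%). It made up 24.5% in HFWT and 25.4% in HFKO, so that the cytosolic transcript exceeded the mitochondrial one only in NDKO livers. The log2 ratio of Got1 to Got2 was 2.07 higher in NDKO than in NDWT and 2.16 lower in HFKO than in NDKO (2-sided exact permutation test, p = 0.00794 each, the smallest that 5 against 5 mice allow; adjusted p = 0.0176 over the 20 ratio tests). The differences between HFWT and NDWT (-0.24, adjusted p = 0.57) and between HFKO and HFWT (0.15, adjusted p = 0.602) did not pass this test. A ratio within a library does not depend on how the libraries were scaled, apart from the 0.1 FPKM added to each value.

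Gpt (ENSMUSG00000022546.4; chromosome 15, 76696764 to 76699674, plus strand), the cytosolic ALT of clinical chemistry, read 168, 154, 135, 152 and 148 FPKM in NDWT and 244, 193, 202, 172 and 225 FPKM in NDKO. It read 181, 146, 184, 181 and 178 FPKM in HFWT and 172, 176, 202, 177 and 165 FPKM in HFKO. On control diet the null mice lay above the WT mice without overlap, with a log2FC of 0.44 (SE 0.09, FDR 0.00351), under the fold threshold. Diet differences were 0.20 in WT (FDR 0.0572) and -0.21 in null livers (FDR 0.0451), and neither reached the fold threshold; the WT value turned to -0.36 under median of ratios scaling, and the null value was then called at -0.74 (FDR 1.5e-06). On CDAHFD the genotypes differed by 0.04 (95% interval -0.15 to 0.23).

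Gpt2 (ENSMUSG00000031700.5; chromosome 8, 85492576 to 85527560, plus strand), the mitochondrial alanine aminotransferase, read 68.3, 50.5, 88.6, 95.03 and 90.6 FPKM in NDWT and 159.6, 106, 117, 148 and 102 FPKM in NDKO. It read 96.2, 119, 113, 104 and 115 FPKM in HFWT and 97.1, 156, 114, 117 and 146 FPKM in HFKO. NDWT was the low group, with all 5 mice below the 15 others. The genotype difference on control diet was 0.70 (SE 0.17, FDR 0.00946), and without NDWT mouse 2, the lowest, it was 0.55 and no longer past the fold threshold. The diet difference in WT was 0.51 (SE 0.17, FDR 0.0104), short of the fold threshold; it was called at 0.59 without NDWT mouse 4 and at 0.76 under hepatocyte marker scaling, and turned to -0.05 under median of ratios scaling. In TSP-1 null livers the diet difference was -0.00 (95% interval -0.36 to 0.35). The exons of Gpt2 hold repeated sequence, with runs of 31 bases found in 2861 other genes, but at most 174 of its 5629 such runs in any of them.

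The balance of the alanine aminotransferases did not pass the test in any comparison. Gpt made up a median of 62.0% (NDWT), 63.2% (NDKO), 62.0% (HFWT) and 60.1% (HFKO) of the summed FPKM of both. Differences in the log2 ratio ran from -0.31 to -0.15 with adjusted p of 0.391 to 0.496 in exact permutation tests.

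Agxt (ENSMUSG00000026272.5; chromosome 1, 93135245 to 93145407, plus strand) makes the enzyme that turns glyoxylate into glycine at the cost of alanine, and its loss in humans causes primary hyperoxaluria. It read 228, 186, 168, 230.5 and 174 FPKM in NDWT and 643, 384, 506, 478 and 340.4 FPKM in NDKO. In CDAHFD livers it read 95.8, 96.6, 86.0, 125 and 99.3 FPKM in HFWT and 128, 133, 138, 112 and 107 FPKM in HFKO. The order was NDKO above NDWT above both CDAHFD groups, with no overlap except between HFWT and HFKO. The genotype difference on control diet was 1.23 (SE 0.15, FDR 4.1e-05), from 197 ± 29.98 to 470.3 ± 118 FPKM.

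The diet lowered Agxt in WT livers by 1.96-fold (log2FC -0.97, SE 0.15, FDR 6.9e-06) and in TSP-1 null livers by 3.73-fold (log2FC -1.90, SE 0.15, FDR 1.1e-09). The difference between these diet effects was -0.93 (SE 0.21, interaction FDR 0.0383). That interaction was lost when any of 13 of the 20 libraries was left out (2, 3 or 5 of NDWT; 2, 4 or 5 of HFWT; 1, 3 or 4 of NDKO; 1, 2, 4 or 5 of HFKO), with FDR then from 0.0506 to 0.0765 and the difference from -0.96 to -0.81. On CDAHFD the genotypes differed by 0.30 (95% interval -0.00 to 0.61, FDR 0.296).

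Sds (ENSMUSG00000029597.8; chromosome 5, 120476531 to 120483932, plus strand), the serine dehydratase of liver, read 47.2, 31.9, 41.6, 49.4 and 35.2 FPKM in NDWT and 200.3, 88.4, 135, 115 and 135 FPKM in NDKO. It read 18.2, 17.6, 34.9, 46.9 and 43.1 FPKM in HFWT and 49.6, 59.6, 45.1, 30.9 and 51.2 FPKM in HFKO. The NDKO mice lay above all others, and the remaining groups overlapped. Sds was 1.68 higher in NDKO than in NDWT (SE 0.27, FDR 0.000613) and 1.49 lower in HFKO than in NDKO on the log2 scale (log2FC -1.49, SE 0.27, FDR 5.6e-05). The diet difference in WT (-0.45, 95% interval -1.01 to 0.11, FDR 0.134), the genotype difference on CDAHFD (0.64, 95% interval 0.08 to 1.20, FDR 0.226) and the interaction (-1.04, FDR 0.188) were not called; the diet difference in WT passed without HFWT mouse 4 (-0.62, FDR 0.0456).

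Sds overlaps 2 genes of the other strand, Plbd2 and Gm15690. The library kit keeps strand, but the strand setting of the counting is not given in the sources used here, so a share of their fragments may have been counted for Sds or the reverse. Plbd2 was at 14.1 to 18.9 FPKM in NDWT, 15.9 to 22.1 FPKM in NDKO, 18.7 to 25.4 FPKM in HFWT and 25.4 to 33.5 FPKM in HFKO, and it was not called in any comparison of genotype. It lay below Sds in all mice on control diet, whereas on CDAHFD the ranges of Plbd2 and Sds overlapped in both genotypes. Gm15690 was at 1.94 to 8.97 FPKM in NDWT and 5.20 to 23.6 FPKM in NDKO (log2FC 1.504, FDR 0.0585), so that its highest level was under that of the lowest Sds value in NDKO, and it was at 1.11 to 9.24 FPKM in HFWT and 3.16 to 10.51 FPKM in HFKO.

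Sdsl (ENSMUSG00000029596.7; chromosome 5, 120458186 to 120472810, minus strand), the neighbour and relative of Sds, was the lowest of the 9 in every group. It read 13.1, 10.1, 9.98, 13.9 and 9.88 FPKM in NDWT and 24.9, 22.1, 22.5, 18.9 and 17.9 FPKM in NDKO. It read 7.15, 6.10, 8.37, 10.1 and 9.51 FPKM in HFWT and 10.4, 12.3, 12.6, 11.1 and 11.1 FPKM in HFKO. All NDKO mice were above all others, and all HFKO mice were above all HFWT mice. Sdsl was 0.90 higher in NDKO than in NDWT (SE 0.13, FDR 0.00034) and changed by -0.87 with diet in null livers (SE 0.13, FDR 8.5e-06).

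The diet difference of Sdsl in WT was -0.47 (SE 0.13, FDR 0.00362), under the fold threshold, and it was called at -1.02 under median of ratios scaling and -0.97 under quantile normalization. On CDAHFD the genotypes differed by 0.49 (SE 0.13, FDR 0.0746), a separation without overlap that was called at 0.63 under quantile normalization only. The ratio of Sds to Sdsl was 0.78 higher in NDKO than in NDWT on the log2 scale (exact permutation test, adjusted p = 0.0289, with overlap), but leaving out any mouse except NDWT 3 or NDKO 2 brought the adjusted p to 0.0529 or 0.0577.

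Gls2 (ENSMUSG00000044005.7; chromosome 10, 128194457 to 128210004, plus strand), which frees ammonia from glutamine next to the urea cycle, was the only member of the 9 called in all 4 comparisons. It read 96.2, 75.6, 68.3, 91.5 and 85.7 FPKM in NDWT and 159.5, 140.0, 115, 112 and 165 FPKM in NDKO. In CDAHFD livers it read 34.4, 42.0, 52.0, 76.2 and 51.6 FPKM in HFWT and 84.1, 95.3, 85.4, 87.6 and 65.8 FPKM in HFKO. NDKO was highest and HFWT lowest, while HFKO and NDWT had nearly equal means (83.6 ± 10.9 and 83.5 ± 11.4 FPKM). Overlap between HFWT and HFKO came from HFWT mouse 4, which lay above HFKO mouse 5.

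The genotype difference of Gls2 was 0.72 on control diet (SE 0.17, FDR 0.00862) and 0.75 on CDAHFD (SE 0.17, FDR 0.037). The diet differences were -0.74 in WT (SE 0.17, FDR 0.000611) and -0.71 in TSP-1 null livers (SE 0.17, FDR 0.000895). The interaction was 0.03 (95% interval -0.47 to 0.53, FDR 0.974). The call on CDAHFD was lost in a fit of those 10 libraries alone (FDR 0.0992), with the replicate number as a block (FDR 0.0707) and when HFWT mouse 1, 2, 3 or 5 or HFKO mouse 1, 2, 3 or 4 was left out (FDR 0.0626 to 0.089). Under hepatocyte marker scaling 3 of the 4 differences fell short of the fold threshold (-0.49, -0.52 and 0.56), and on control diet the genotype difference was 0.60 and still called. Gls2 overlaps Spryd4 on the other strand, which was at 10.4 to 16.8 FPKM in all 20 livers and differed by 0.25 between genotypes on control diet (FDR 0.122).

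Set against glutamine synthetase (Glul), Gls2 changed in proportion too. Glul, a pericentral gene, was at 279 to 367 FPKM in NDWT, 294 to 365 FPKM in NDKO, 488 to 944 FPKM in HFWT and 353 to 469.8 FPKM in HFKO. Gls2 stood at a median of 0.245 of the level of Glul in NDWT and 0.407 in NDKO, against 0.0804 in HFWT and 0.190 in HFKO livers. In all 4 comparisons the ratio of Gls2 to Glul separated the groups without overlap: on the log2 scale it differed by -1.74 with diet in WT, by -1.12 with diet in null livers, by 0.79 with genotype on control diet and by 1.41 with genotype on CDAHFD (exact permutation tests, adjusted p = 0.0176 each). These 4 kept an adjusted p of at most 0.0318 with each mouse left out in turn.

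**Figure D3:**
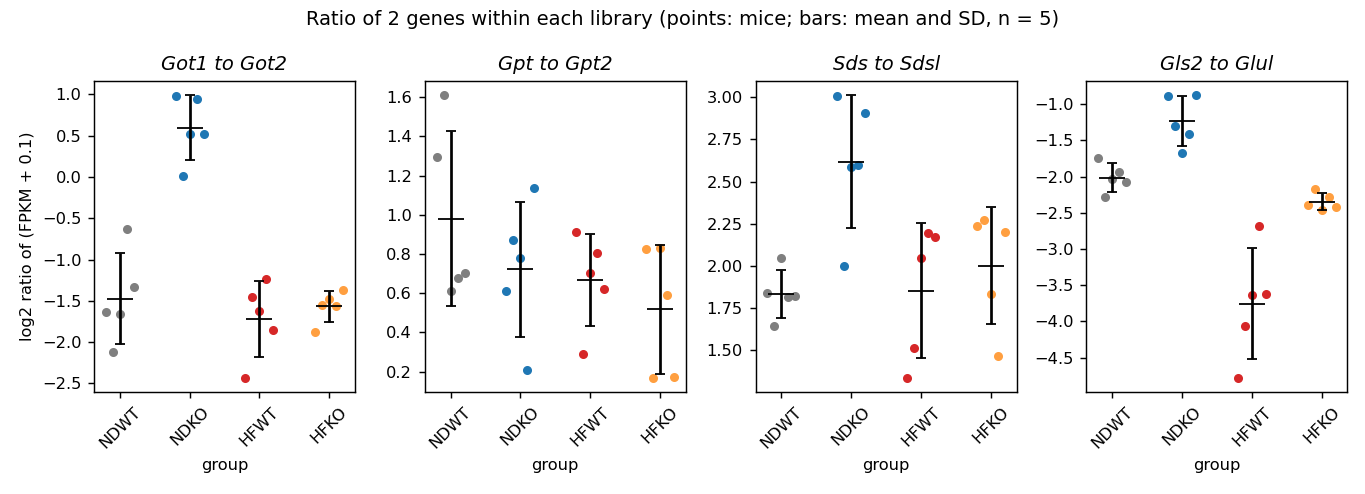
log2 ratio of 2 transcripts within each library (y axis) for 4 pairs of genes in the 4 groups (x axis); points are mice, bars mean and SD of 5 mice. Got1 to Got2 was high in NDKO alone, Gpt to Gpt2 overlapped in all groups, and the mean of Gls2 to Glul was highest in NDKO, followed by NDWT, HFKO and HFWT.

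Glud1 (ENSMUSG00000021794.9; chromosome 14, 34310727 to 34345144, plus strand), glutamate dehydrogenase, was not called in any comparison. It read 209, 264, 223, 241 and 233 FPKM in NDWT and 176, 242, 198, 191 and 231 FPKM in NDKO. It read 228, 271, 260.0, 209 and 249.7 FPKM in HFWT and 298, 242, 251, 303 and 231 FPKM in HFKO. All groups overlapped. Genotype differences were -0.18 on control diet (95% interval -0.39 to 0.03) and 0.12 on CDAHFD (95% interval -0.09 to 0.33), and diet differences 0.06 in WT (95% interval -0.16 to 0.27) and 0.35 in TSP-1 null livers (SE 0.10, FDR 0.00416, under the fold threshold). Both diet values turned negative under median of ratios scaling, to -0.51 and -0.18.

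The order of the 9 transcripts differed between groups. Got2 (242 FPKM) and Glud1 (234 FPKM) led in NDWT, followed by Agxt, Gpt, Got1, Gls2 and Gpt2, each overlapping its neighbour, with Sds (41.0 FPKM) and Sdsl (11.4 FPKM) below without overlap. In NDKO, Agxt (470.3 FPKM) and Got1 (359 FPKM) overlapped each other and led, above Got2 (231 FPKM) without overlap between Got1 and Got2. In both CDAHFD groups Glud1 and Got2 led again, without overlap between them, and Got1 fell to the sixth place in HFWT and the seventh in HFKO, overlapping Gls2. Sdsl came last in each group.

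Genes of hepatocyte zones were summed by list and compared between genotypes. A list of 10 periportal genes that holds none of the 9 summed to 3525 to 4796 FPKM in NDWT and 5839 to 7603 in NDKO, without overlap, and 5 of its 10 genes were called higher in NDKO (Ass1 by 1.08, Cps1 by 1.10, Arg1 by 0.83, Hal by 0.98 and Pck1 by 0.82 on the log2 scale) and none lower. Ass1, Cps1 and Arg1 are urea cycle genes, Hal degrades histidine and Pck1 serves glucose synthesis. Over all genes tested, 1.74% were called higher and 3.03% lower between genotypes on control diet. The rest of the periportal list was not called. Means in NDWT and NDKO were 390 and 381 FPKM for Cyp2f2, 236 and 227 for Hsd17b13 and 429 and 420 for Pigr, slightly lower in NDKO. They were 144 and 152 FPKM for Uroc1 and 19.7 and 28.6 for Aldh1b1, higher in NDKO. On CDAHFD the list summed to 2663 to 3399 FPKM in HFWT and 3797 to 4375 in HFKO, also without overlap, with none of the 10 called. The 11 hepatocyte genes summed to 58024 to 62167 FPKM in NDWT and 63701 to 67021 in NDKO, with none of the 11 called.

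A list of 10 pericentral genes, which holds Glul and Oat, summed to 4692 to 6504 FPKM in NDWT and 5460 to 6131 in NDKO, with 1 called higher and 1 lower. On CDAHFD it summed to 4630 to 5528 FPKM in HFWT and 2934 to 4190 in HFKO. Cyp2e1 made up most of these sums, with means of 3510 FPKM in HFWT and 2753 in HFKO. Of the 10 genes, 5 were called lower in HFKO (3 under median of ratios scaling), against 0.33% of all genes. In bulk liver, fewer cells of a type or zone and less RNA per cell cannot be told apart, and the part of zonation in the differences of the 9 genes was not tested.

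Markers of other cell types were compared between diets as well. All 5 cholangiocyte genes were called higher on CDAHFD in both genotypes (summed FPKM 12.4 to 18.0 on control diet, 181 to 488 on CDAHFD), as were all 6 stellate and myofibroblast genes (8.03 to 13.0 against 92.8 to 233) and the 3 neutrophil genes tested of 4. Of 6 T and B cell genes 5 were called higher in each genotype, and of 6 macrophage genes 3 in WT and 4 in null livers with 1 lower in each. Of 5 endothelial genes 1 was called higher in WT and 2 in null livers, and both erythroid genes were called lower in null livers. Of all genes tested 44.1% in WT and 41.9% in null livers were called higher, and 4.62% and 4% lower. The macrophage and endothelial counts do not stand clearly above the share called higher. Krt7, Cd8a and Ms4a1 were at most 0.153, 0.364 and 0.439 FPKM on control diet. Krt19 and Cd3e had medians of 0.324 and 0.329 FPKM in NDWT and 0.403 and 0.413 in NDKO. These cholangiocyte and T and B cell genes passed the filter only through CDAHFD livers, so a higher level there was built into their being tested. Hepatocyte genes summed to 41894 to 56565 FPKM in HFWT and 51341 to 65584 in HFKO, with 2 of 11 called lower in each genotype. With these summed shares moving, the change per hepatocyte was not measured. On control diet none of the cholangiocyte, macrophage, neutrophil, endothelial, T and B cell or erythroid genes was called between genotypes, and 1 stellate gene was lower in NDKO.

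Other transaminases and their relatives were read from a list of 13 genes, of which 11 were tested. On CDAHFD 7 fell and 2 rose in WT livers, and 5 fell and 1 rose in TSP-1 null livers. Over all genes tested, 4.62% were called lower and 44.1% higher in WT, and 4% and 41.9% in null livers. Aadat (kynurenine and aminoadipate) fell by 1.16 and 1.46 on the log2 scale in WT and null livers, and Abat (GABA) by 1.04 and 1.25. Oat (ornithine) fell by 0.70 and 1.80, with a called interaction (-1.10, SE 0.22, FDR 0.0257). Psat1, the transaminase of serine synthesis, went the other way, by 2.83 and 3.06. On control diet Psat1 was at most 0.158 FPKM and 12 fragments, so it passed the filter only through CDAHFD livers. The size of its rise therefore depends on the 0.1 FPKM added. Agxt2, a mitochondrial relative in the same reaction class as Agxt, was called higher in WT (0.76, SE 0.10). The median log2FC of the list was -0.72 in WT and -0.43 in null livers, and hepatocyte marker scaling left 4 called lower and 3 higher in WT. Median of ratios scaling gave 7 lower and 1 higher in WT, without Agxt2 (0.20), and 8 lower and 1 higher in null livers.

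Between genotypes on control diet 1 of the 11 tested genes of that list was called, Etnppl (1.26, SE 0.27, FDR 0.00443), higher in NDKO. Over all genes tested, 1.74% were called higher there. Etnppl makes a lyase of phosphoethanolamine that is related to transaminases and is not a transaminase itself. The list median was 0.06, against 0.72 for the 9 genes, of which 6 were called. On CDAHFD 1 was called, Oat, lower in HFKO (-0.93, SE 0.16, FDR 0.00476), against 0.33% of all genes called lower.

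The glutamine and glutamate list was read from 15 genes, of which 13 were tested. On CDAHFD 6 were called higher and none lower in WT, and 5 and none in null livers. That is near the share of all genes called higher, 44.1% in WT and 41.9% in null livers, with 4.62% and 4% called lower. Asns (asparagine synthetase) rose by 3.75 and 3.21 on the log2 scale, and Aldh18a1 (proline synthesis from glutamate) by 1.86 and 2.26. Cad (the first steps of pyrimidine synthesis, from glutamine) rose by 0.92 and 1.51. Aldh18a1 was at 0.348 to 0.824 FPKM in NDWT and at most 0.476 in NDKO, so it passed the filter only through CDAHFD livers. Asns was low on control diet too, at 5 to 45 fragments in NDWT and 24 to 109 in NDKO. Glul was called higher in WT only (1.00, SE 0.13; 0.41 in null livers), and its interaction was not called (-0.59). The list median was 0.52 in WT and 0.41 in null livers, close to the medians of all genes, and under median of ratios scaling the calls became 2 higher and 4 lower in WT and 3 higher and 3 lower in null livers (under quantile normalization 4 and 1, and 5 and 1). Between genotypes, Prodh (proline oxidation) was higher (0.69) and Gclc (glutathione synthesis) lower (-0.79) in NDKO, and Glul was lower in HFKO (-0.66, FDR 0.0175). Prodh was at 0.57 under hepatocyte marker scaling, and Glul at -0.56 under median of ratios scaling, both short of the fold threshold. With diet in WT, Cad (0.38) and Glul (0.44) were not called under median of ratios scaling either.

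The serine, threonine, glycine and glyoxylate list held 16 genes, of which 14 were tested. On CDAHFD 5 fell and 1 rose in WT, and 4 fell and 2 rose in null livers. Over all genes tested, 4.62% were called lower and 44.1% higher in WT, and 4% and 41.9% in null livers. Phgdh, which opens serine synthesis, rose by 2.70 and 2.49, and Psph, which closes it, by 0.83 in null livers. On control diet Phgdh was at most 0.215 FPKM and 10 fragments, so it passed the filter only through CDAHFD livers. The size of its rise therefore depends on the 0.1 FPKM added. Grhpr (glyoxylate reductase) fell by 1.08 and 0.77, Gldc (glycine cleavage) by 0.89 and 0.82 and Sardh (sarcosine dehydrogenase) by 0.60 and 0.72. Hepatocyte marker scaling left 2 called lower and 2 higher in WT, and 1 lower and 2 higher in null livers, whereas median of ratios scaling gave 10 lower and 1 higher in WT, and 8 lower and 1 higher in null livers, without Psph (0.35). Between genotypes on control diet only Hao1 was called, lower in NDKO (-0.60), against 3.03% of all genes, and none on CDAHFD. Hao1 fell short of the fold threshold under median of ratios scaling (-0.52) and quantile normalization (-0.49). Of the 44 genes in the 3 lists, Got1l1, Bcat1, Pycr1, Gad1, Tdh and Dao were too low to test, at no more than 0.524 FPKM in any library.

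**Figure D4:**
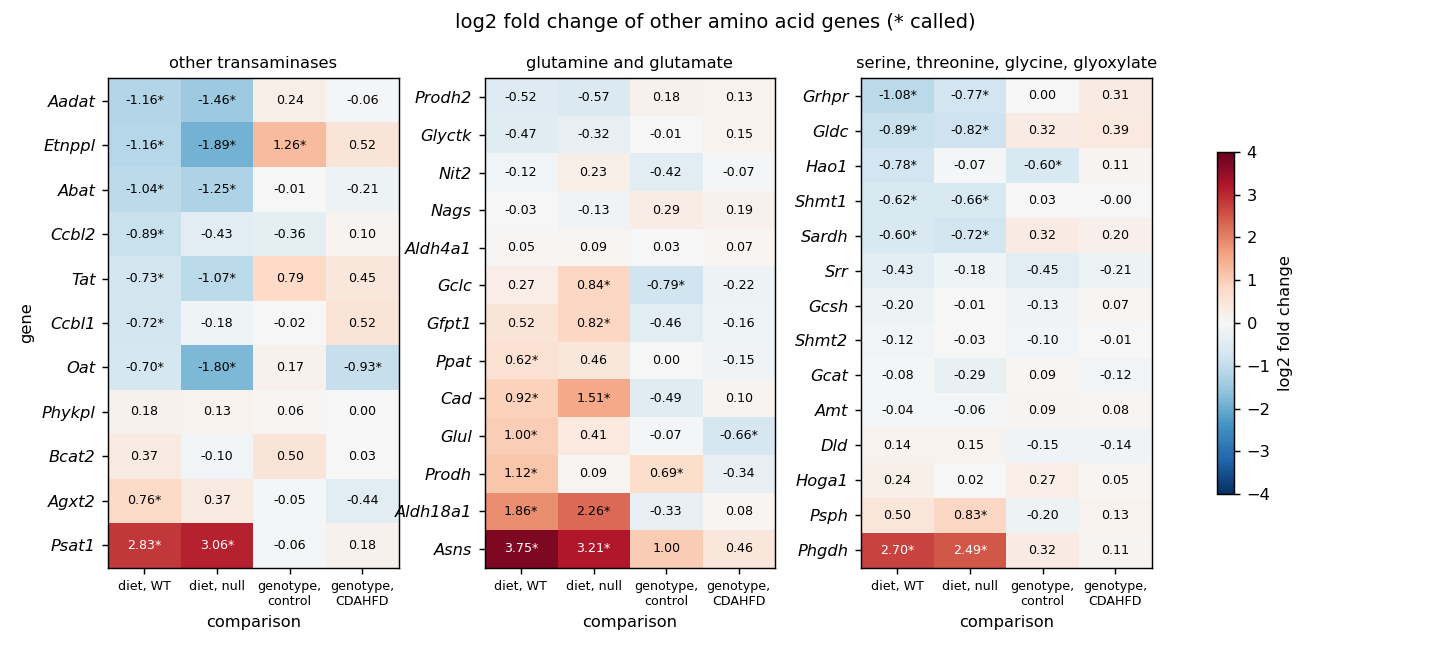
log2FC (colour and number) of the tested genes (rows) of 3 lists of amino acid genes in the 4 comparisons (columns; diet in WT, diet in TSP-1 null, genotype on control diet, genotype on CDAHFD); an asterisk marks a call. Psat1, Phgdh, Asns and Aldh18a1 rose with diet by 1.86 to 3.75 while Aadat, Abat and Gldc fell, and the genotype columns hold few calls. Psat1 and Phgdh were near 0 on control diet, at most 0.158 and 0.215 FPKM. Aldh18a1 was at most 0.824 FPKM there, and all 3 passed the filter only through CDAHFD livers.

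The 9 genes also varied between mice of 1 group, and they did not do so as a block. After the group means were taken off, Pearson r of log2(FPKM + 0.1) over the 20 libraries was 0.72 for Sds and Sdsl, 0.70 for Got1 and Gpt2, 0.65 for Sdsl and Agxt, 0.60 for Sds and Gls2 and 0.59 for Sdsl and Gls2. It was -0.21 for Got1 and Got2 and -0.23 for Gpt and Gpt2, so neither isoenzyme pair had a positive value. Glud1 had negative values with 7 of the other 8 genes, down to -0.58 with Agxt. These values describe 20 libraries that share 4 groups and a total fixed within each library.

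**Figure D5:**
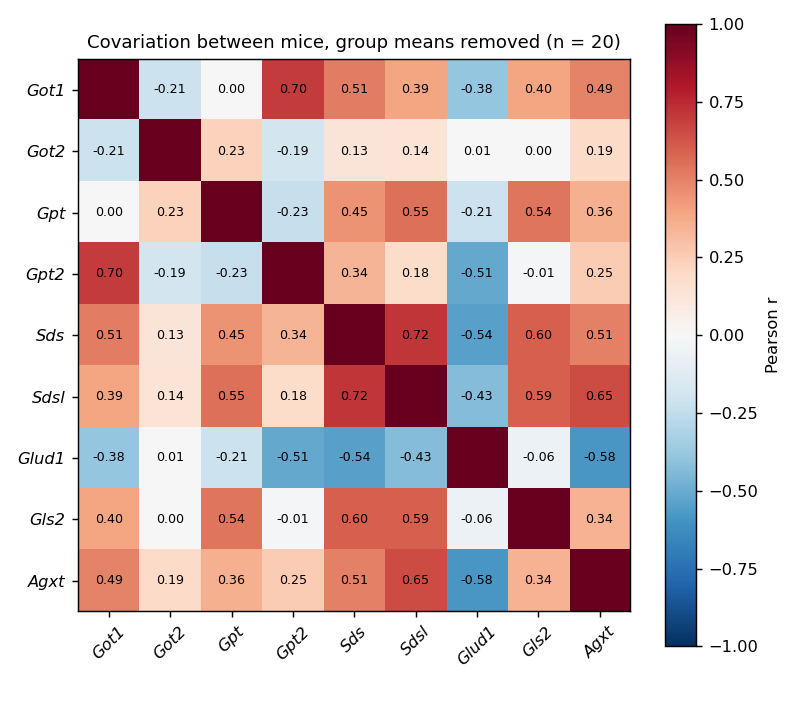
Pearson r between the 9 genes (rows and columns) over 20 libraries after group means were removed from log2(FPKM + 0.1); red is positive and blue negative. Sds with Sdsl (0.72) and Got1 with Gpt2 (0.70) are the highest pairs, and Glud1 with Agxt (-0.58) the lowest.

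Of all genes tested, those most like each of the 9 in this variation between mice were named by the same measure, 3 for each. For Got1 they were Fh1 (fumarate hydratase, r = 0.89), Il17rb (0.85) and Mat1a (methionine adenosyltransferase of liver, 0.84), and Il17rb was also first for Gpt2 (0.90), before Gm26782 (0.89) and Cep110 (0.84). For Gls2 they were Hoga1 (hydroxyproline breakdown to glyoxylate, 0.87), Hal (0.77) and Pbld1 (0.76). For Sds they were Gm15690 (0.79), which overlaps it, Serpina1b (0.76) and Gjc3 (0.76), and for Sdsl Oaf (0.77), Nudc (0.70) and Eme2 (0.70). For Agxt they were Ctxn1 (0.76), Ctsf (0.75) and Igfbp2 (0.75), and for Gpt Hsf4 (0.83), 1810043H04Rik (0.80) and Nr0b2 (0.80). For Glud1 they were Slc25a16 (0.85), Txnrd2 (0.82) and Ccbl2 (a kynurenine aminotransferase, 0.81), and for Got2 Hopx (0.70), Sult2a7 (0.69) and Trbj2-7 (0.68). Being picked as the highest among all genes tested, these values are high by selection, and they were not tested. Some of the genes named were low, with means of 0.719 FPKM for Sult2a7, 0.963 for Eme2 and 0.612 for Gjc3.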

How the data were processed

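The authors made poly(A) libraries with a directional kit from 1 liver sample per mouse, sequenced them in pairs and processed them with QuickRNASeq; the submitters' processing notes name STAR 2.5.2 and featureCounts of Subread 1.5.1. The series text gives the right medial lobe, the paper the right lateral lobe. The notes name the build GRCh38, while the coordinates in the table are those of mouse GRCm38. The deposited table holds FPKM per gene for 20 libraries, with no further scaling between libraries, and samples were grouped by their labels. The total of each library was fitted so that FPKM times gene length and that total came to whole fragments. With these totals 100% of the values checked were whole, within about 0.02 beyond the rounding of the FPKM. As the totals were fitted to that end, this is not an independent check of them. No libraries of the same group were copies of each other (chi-square per degree of freedom at least 13.0 in 40 pairs within groups). Pairs between groups were not compared. The 95% intervals are those of limma, from the spread between mice, and are not counting intervals.

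log2(FPKM + 0.1) was fitted with limma 3.58.1 in R 4.3.3 (1 mean per group, all 20 libraries, eBayes with trend) for 14524 genes above 0.5 FPKM in at least 5 libraries. Calls needed a 2-sided Benjamini-Hochberg FDR under 0.05 over all genes tested and an absolute log2FC above 0.58. The fit was tested on simulated data. Fold changes are on the log2(FPKM + 0.1) scale. Ratios were compared with 2-sided exact permutation tests (252 arrangements, 5 ratios by 4 comparisons; 1 ratio and 2 genes of a list are not reported here). Tables used Python 3.11.15, pandas 2.3.3, numpy 2.4.6 and scipy 1.17.1, and figures matplotlib 3.10.9. Alternatives were pseudocounts of 0.01 and 1, looser filters, 3 scalings, no fold threshold, only the groups compared, the replicate block and each mouse left out. The 9 genes, the lists and the rules for naming genes (all 9; up to 6 called genes per list and comparison; the 3 most alike) were chosen with earlier results of these data known, so they are not independent evidence of direction. Marker genes are named where their list is described. Promoter windows come from RefSeq, GRCm38.p6.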

Additional observations from a re-analysis of the deposited data

Results flagged for a closer look

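Among 52 groups of 5 values (the 9 genes and the 4 ratios in each group), 1 held a value whose gap to its nearest neighbour took more than 0.71 of the group's range, which chance gives in about 5% of groups. Gpt in HFWT mouse 2 was 146.3 FPKM while the other 4 HFWT mice lay between 178 and 184 FPKM, a gap of 0.839 of the range. In 2 of the 9 genes the diet effect differed between genotypes in the interaction term of limma: Got1, by -1.77 (FDR 0.0183), and Agxt, by -0.93 (FDR 0.0383). Both are the libraries labelled TSP-1 null less WT, and Thbs1 itself went against those labels on control diet.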

How the results depend on the processing

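No result changed sign past the threshold. The number of the 9 genes called with diet in WT, 2 in the report, was 6 under median of ratios scaling and 5 without a fold threshold, and 2 to 4 with each mouse left out (4 without HFWT mouse 4); under hepatocyte marker scaling it was 1 higher and 1 lower. With diet in TSP-1 null livers, 5 became 8 without a fold threshold. Those counts join both directions: Gpt2 was higher in WT (0.51) and Glud1 in null livers (0.35), and the others were lower. Of all 14524 genes tested, 9355 were then called higher and 1268 lower in WT, and 9289 and 1117 in null livers. Between genotypes on control diet the number of the 9 genes called was 6 and moved by less than 1.5 times. On CDAHFD, 1 became 2 under quantile normalization and 0 under hepatocyte marker scaling, in a fit of only the groups compared and with a replicate block, and 0 to 1 with each mouse left out. For the interaction, 2 became 1 with no filter on low values (Agxt FDR 0.0639) and 1 to 2 with each mouse left out. Without single mice, the Sds to Sdsl difference ran from 0.69 to 0.94 between genotypes on control diet and from -0.77 (adjusted p = 0.0265 without NDKO mouse 2) to -0.48 with diet in null livers. With 4 against 5 mice the exact p cannot go below 0.0159. The cause was not tested.

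Same-numbered mice shared no deviation (correlations -0.133 to 0.081), so the numbers do not pair the mice; the replicate block changed no other call of the 9 genes, and 5 pairs cannot bring an exact p for a ratio under 0.0625, so no blocked ratio was tested. Over all genes, calls on diet in WT were 6412 higher and 671 lower, against 3299 and 2242 under median of ratios scaling and 2514 and 2562 under quantile normalization; in null livers 6088 and 581, against 3225 and 1980, and 2421 and 2186. Between genotypes on control diet they were 253 and 440, against 348 and 329, 246 and 236, and 177 and 787 under hepatocyte marker scaling; on CDAHFD 24 and 48, against 38 and 27, 65 and 39, and 37 and 590. Without a fold threshold they were 504 and 1395 on control diet and 37 and 126 on CDAHFD.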
